A study of Homo sapiens with 2 samples.

Results

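Small heat shock proteins and BAG co-chaperones were examined in KYN2 cells, a human hepatocellular carcinoma cell line. The members were chosen by gene symbol from a list of 9 genes: the small heat shock protein genes HSPB1, CRYAB, HSPB8 and HSPB11 and the BAG family genes BAG1, BAG2, BAG3, BAG4 and BAG5. All probes that the platform annotation gives to these genes were used, which made 12 probes for 8 genes out of 18665 genes with a named probe. The annotation used here names no probe for BAG2, so it has no value below, and it lists HSPB11 under its current symbol, IFT25. The comparison was between cells kept under puromycin with an shRNA plasmid against HSF1, the transcription factor of the heat shock response, and control KYN2 cells. What the control cells carried, and whether either line came from 1 clone, is not given in the sources used here. Each group had 1 Illumina HumanWG-6 BeadChip array of total RNA, so differences have no replicate check, no test was possible, and the number of arrays limits the precision.

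Small heat shock proteins bind unfolding proteins without using ATP and keep them from clumping until other chaperones refold them or degrade them. BAG proteins share a domain that docks on HSP70 and speeds the release of its bound nucleotide, which lets the client go. The 2 families meet in the complex of HSPB8 with BAG3, which with HSP70 and the ubiquitin ligase CHIP sends damaged proteins to autophagy. HSF1 is known to switch on HSPB1, CRYAB and BAG3 in stressed cells. HSPB11 carries the family name but lacks the alpha-crystallin domain of small heat shock proteins, and is a subunit of the intraflagellar transport machinery of cilia.

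The knockdown itself was not settled by the array. The signal of the brighter HSF1 probe was 164.3 in control cells and 58.2 on the knockdown-labelled array, while its deposited detection value was higher on the latter, 1.0 against 0.99473. There, 459 further probes lay within 0.1 of that signal, and the highest of their detection values was 0.76416. Knockdown-labelled minus control, the brighter probe lay at -2.29 in log2 units after normalization. It was -1.47 without background correction and -1.09 in the authors' processed values. The dimmer HSF1 probe gave 77.9 and 81.3 and passed the detection limit on neither array. Directions below therefore rest on the labels of the arrays. Of 13 hepatocyte markers with a probe, 9 were detected on both arrays, among them ALB (albumin) at signals of 19292.5 and 20949.9 and APOB, which was lower by -1.91. AFP (90.4 and 201.5) and TTR (85.3 and 155.5) passed the detection limit in the knockdown-labelled cells alone, and FGB (230.6 and 69.6) and FGG (185.5 and 84.8) on the control array alone. None of the fibroblast, endothelial or lymphocyte markers was detected on either array.

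A probe was called detected at a detection p under 0.01, and levels are log2 values after background correction and quantile normalization. By that rule 4 of the 8 genes were detected on both arrays (CRYAB, HSPB11, BAG3 and BAG5). HSPB8 was detected on the knockdown-labelled array alone, BAG4 on the control array alone, and HSPB1 and BAG1 on neither. Of all 18665 genes with a named probe, 7511 were detected on both, 794 on the knockdown-labelled array alone and 517 on the control array alone. The 8 genes are too few to be read against those counts. Differences are knockdown-labelled minus control, and calls went by size only: 2-fold or more either way. Of the 4 members detected on both arrays, 1 was lower (BAG3), against 10.4% of all 7511 genes detected on both, and 1 was higher (CRYAB), against 9.89%. The median difference was -0.10 over the 4 members and -0.06 over all genes. The 4 are too few for their share to be read against that background.

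**Figure D1:**
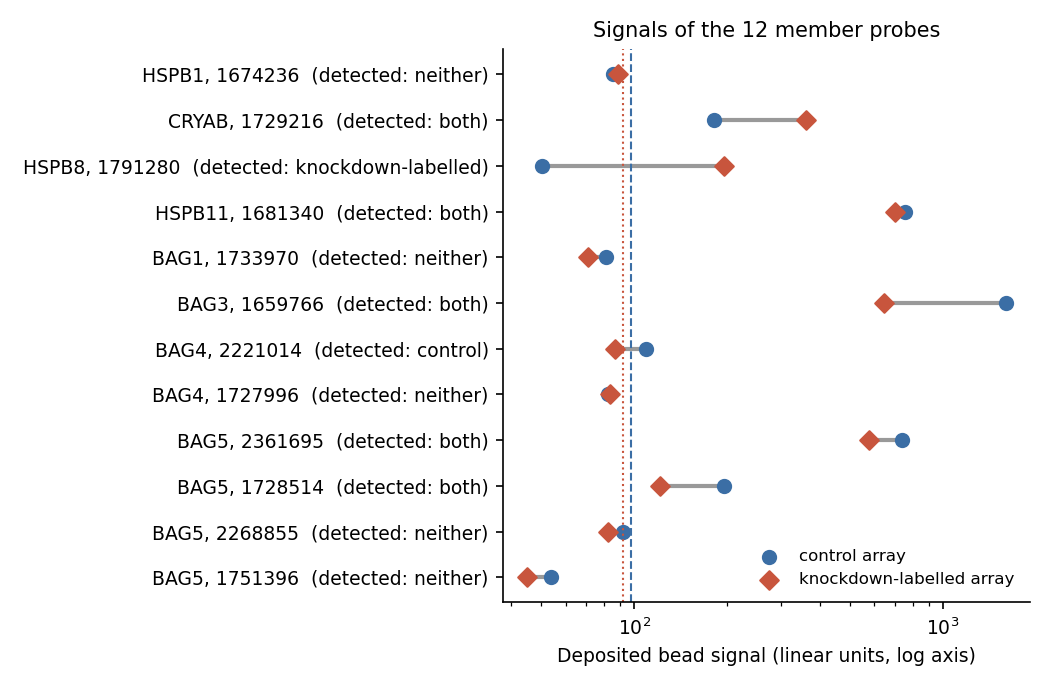
Deposited bead signal of the 12 member probes (linear units on a log axis) on the control array (circles) and the knockdown-labelled array (diamonds). Lines mark the lowest signal of any detected probe other than that of HSF1: 97.4 in control cells (dashed) and 91.8 in knockdown-labelled cells (dotted). BAG3 runs from 1599.3 down to 643.3, CRYAB and HSPB8 run the other way, and both HSPB1 points lie left of the lines.

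Because HSF1 binds repeats of the 5-base unit that holds GAA, the RefSeq promoter windows (GRCh38.p14) of the members were searched for such repeats. The windows run from 250 bases before to 50 bases after each gene's start, and 7 members had one, with 9 windows in all. No window was available for CRYAB or BAG4, so those genes were not searched. A pair of units facing each other, GAANNTTC, reads the same on both strands and is in 6.77% of all 35116 windows. The other order, TTCNNGAA, is in 7.74%. The 3-unit forms, GAANNTTCNNGAA and TTCNNGAANNTTC, each contain both pairs and are in 0.259% and 0.268%. Shown are the 250 bases before the start of HSPB8 and BAG3, the members at the centre of the results, and of HSPB1, the archetypal heat-inducible small heat shock protein. Capitals mark the GAANNTTC pair.
HSPB8, chr12:119178681-119178930, plus strand: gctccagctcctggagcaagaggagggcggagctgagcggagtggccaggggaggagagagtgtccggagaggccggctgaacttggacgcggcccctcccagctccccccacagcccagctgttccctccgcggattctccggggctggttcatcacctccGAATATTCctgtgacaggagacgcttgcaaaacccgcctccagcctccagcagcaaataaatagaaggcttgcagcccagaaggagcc
HSPB1, chr7:76302423-76302672, plus strand: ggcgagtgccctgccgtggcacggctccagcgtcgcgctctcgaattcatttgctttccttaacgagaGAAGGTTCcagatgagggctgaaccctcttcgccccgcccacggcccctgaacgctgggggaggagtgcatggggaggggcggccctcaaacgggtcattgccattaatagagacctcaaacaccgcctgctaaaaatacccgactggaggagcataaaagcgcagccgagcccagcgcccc
BAG3, chr10:119651130-119651379, plus strand: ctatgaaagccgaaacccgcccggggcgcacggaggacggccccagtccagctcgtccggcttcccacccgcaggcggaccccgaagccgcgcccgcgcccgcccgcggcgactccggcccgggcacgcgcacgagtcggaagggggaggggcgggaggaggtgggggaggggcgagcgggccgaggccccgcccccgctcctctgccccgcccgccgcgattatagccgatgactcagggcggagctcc

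The facing pair was found in the windows of 3 members. In HSPB8 it began 88 bases before the start, and a second one began 4 bases after it, outside the stretch shown. In HSPB1 it began 182 bases before the start, and in BAG2 124 bases before. The windows of BAG1, BAG3, BAG5 and HSPB11 held no match to any of the 4 forms, which says only that these letters are not in those windows. A match is a description of sequence and no sign of HSF1 binding.

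Among the small heat shock proteins, HSPB8 and CRYAB were higher on the knockdown-labelled array. HSPB8, the small heat shock protein that partners BAG3, gave signals of 50.4 in control cells and 195.7 in the knockdown-labelled cells. The control signal lay below that of most probes on its array (11.6% were dimmer) with a detection p of 0.769, so the level there was not well above background. Set against the lowest detected level of the control array, HSPB8 was at least 2.77-fold higher on the background-corrected scale, or 1.47 in log2 units, and at least 1.03 without background correction. At-least values use the higher of that lowest level and the gene's own, and hold only on the scale they are given for. The signals themselves, which include background, differed 3.88-fold. Of the 794 genes that only the knockdown-labelled array detected, 23.8% were at least 2-fold higher by the same rule on the corrected scale, and 99 had a larger bound than HSPB8.

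CRYAB, the alpha-B crystallin that protects desmin and other filaments in muscle and the lens, had signals of 181.6 and 360.5. It was detected on both arrays with the knockdown-labelled one higher. The normalized levels were 7.11 and 8.38, a difference of 1.27 or 2.41-fold, and 447 of the 7511 genes lay higher. The signals themselves differed 1.99-fold, and the authors' processed values gave 1.05. CRYAB thus stood near the 2-fold line in these data, and beyond it in each of 6 alternative settings, which ran from 1.05 to 1.28. A detection p under 0.05 and the mean over detected probes could not change its value, because its 1 probe was detected on both arrays.

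HSPB1, the small heat shock protein that caps actin filaments and is induced by heat in many cells, had signals of 85.3 and 88.5 at its single probe. Both lay under the lowest signal of any detected probe other than that of HSF1, 97.4 in control cells and 91.8 on the other array, and the detection p values were 0.0198 and 0.0119. The probe was thus not well above background on either array and no fold is given. HSPB11 was bright and nearly level, with signals of 755.7 and 700.2 and a difference of 0.04. With median scaling in place of quantile normalization that difference was -0.03, so its direction was not fixed.

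Small heat shock protein genes outside the 4 were at background. HSPB2, HSPB3, HSPB6 and HSPB7, which are known mainly from muscle, the lens gene CRYAA, and the testis genes HSPB9 and ODF1 were detected on neither array. Their signals ran from 48.8 for HSPB7 to 81.0 for HSPB2. The HSPB2 gene lies next to CRYAB in the genome, and its signals were 81.0 and 75.5.

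Some markers of other cell types were also higher on the knockdown-labelled array or detected there alone. That array alone detected 794 of the 18665 genes with a named probe. A level 2-fold or more above control was seen in 743 of the 7511 genes that both arrays detected. With 1 difference per gene, a shared change with HSPB8 or CRYAB cannot be measured. Of 10 muscle markers, 2 were seen only in the knockdown-labelled cells (TAGLN, at signals of 66.4 and 130.9, and ACTA1, at 52.5 and 102.1), 1 on both (TNNT1, 0.21) and 7 on neither, among them DES and MYOD1. Their summed signal was 663 and 768. Of 6 myeloid markers, LYZ (signals of 78.0 and 667.2) and CD14 (76.0 and 256.7) were seen only in the knockdown-labelled cells, CD68 on both (-0.50), and PTPRC, CD163 and ITGAM on neither, with a summed signal of 861 and 1460. Of 6 biliary and progenitor markers, SOX9 (56.1 and 642.6) and EPCAM (58.0 and 103.6) were on that array alone, CD24 was 4.07 higher, and KRT7, KRT19 and PROM1 were on neither, with a summed signal of 497 and 3620. The part of such markers in the HSPB8 and CRYAB values was not tested. In total RNA of a culture, fewer cells of a type and less RNA per cell cannot be told apart.

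In the BAG family, BAG3 was lower on the knockdown-labelled array. BAG3, the stress-inducible member that links HSP70 and HSPB8 to autophagy, gave signals of 1599.3 in control cells and 643.3 in the knockdown-labelled cells. Its normalized levels were 10.51 and 9.30, a difference of -1.20 or 2.3-fold lower. Its difference was among the more negative ones, with 491 of the 7511 genes lying lower still. BAG3 is in the brightest of 3 equal groups of genes, where 7.55% were at least 2-fold lower and 8.79% higher. The signals differed 2.49-fold and the authors' processed values by -1.32, and the difference lay between -1.32 and -1.15 over the settings tried. The precision of such a value within these arrays can be gauged from genes with a pair of detected probes. Over 1352 such genes the differences of the 2 probes gave a standard deviation of 0.34 for a single probe, which leaves out variation between cultures.

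BAG5, which inhibits the ubiquitin ligase parkin and acts on HSP70, had 4 probes. The brightest had signals of 738.5 and 576.3 and a difference of -0.25, within 2-fold. The second detected probe had signals of 195.0 and 120.9 and a difference of -0.91. All 4 probes lay below 0, but the 2 detected ones disagreed on the size by 0.66, a gap reached by 10.9% of genes with a pair of detected probes. The 4 probes carry 3 different transcript accessions in the annotation, and whether the gap is one of transcripts or of probes was not tested. The other 2 BAG5 probes were not detected, with signals of 92.4 and 82.5 for one and 53.7 and 45.1 for the other.

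BAG4 and BAG1 lay near the detection limit. BAG4, also called silencer of death domains because it binds the TNF receptor TNFRSF1A, had signals of 109.3 and 86.5 at its brighter probe, with detection p values of 0.00791 and 0.0145. The signals differed 1.26-fold. The at-least difference was -0.41 on the background-corrected scale, and -0.24 without background correction, -0.26 with an offset of 50 and -0.28 with median scaling. Of the 517 genes that only the control array detected, 27.9% had an at-least value of 2-fold or more on the corrected scale, and BAG4 was not among them. Its other probe, detected on neither array, had signals of 82.3 and 83.8 and so were not lower on the knockdown-labelled array. BAG1, the founding member of the family and a partner of BCL2, had signals of 81.3 and 71.1 at detection p values of 0.0277 and 0.0448, so no fold is given. BAG6, a member outside the list that guards membrane proteins in the cytosol, was detected on both arrays at 343.7 and 384.1, with differences of 0.30 and -0.23 at its 2 probes.

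**Figure D2:**
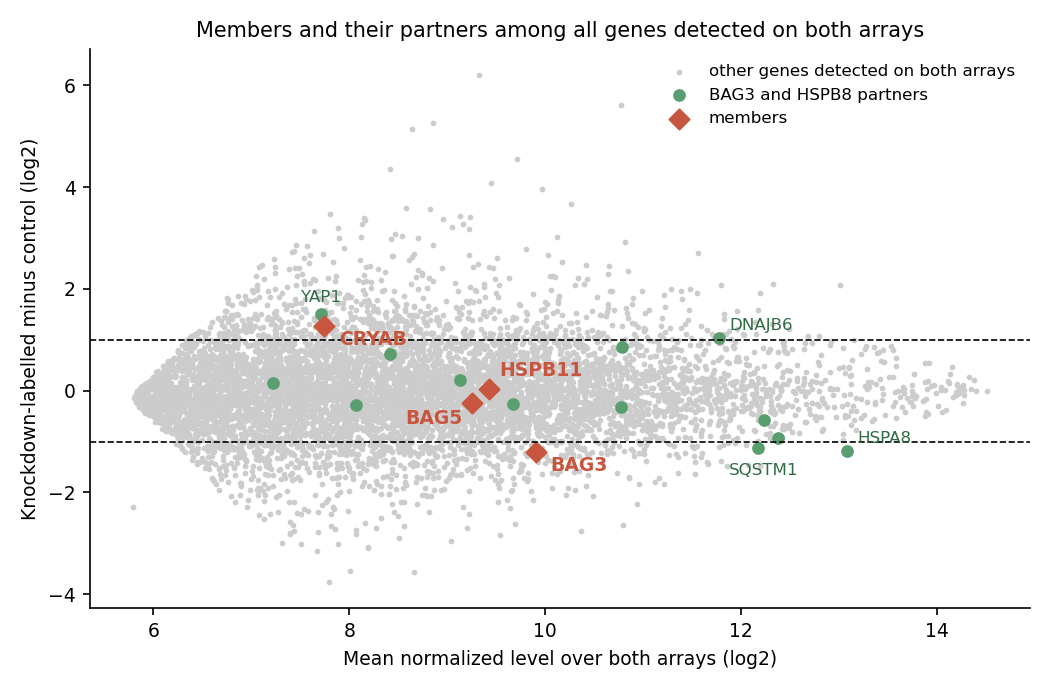
Difference between the arrays (knockdown-labelled minus control, log2) against the mean normalized level (log2) for the 7511 genes detected on both arrays, with the 4 members detected on both as diamonds and their BAG3 and HSPB8 partners as green points. Dashed lines mark 2-fold: BAG3 (-1.20) lies below the lower line, CRYAB (1.27) above the upper line, and BAG5 (-0.25) and HSPB11 (0.04) between them.

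**Figure D3:**
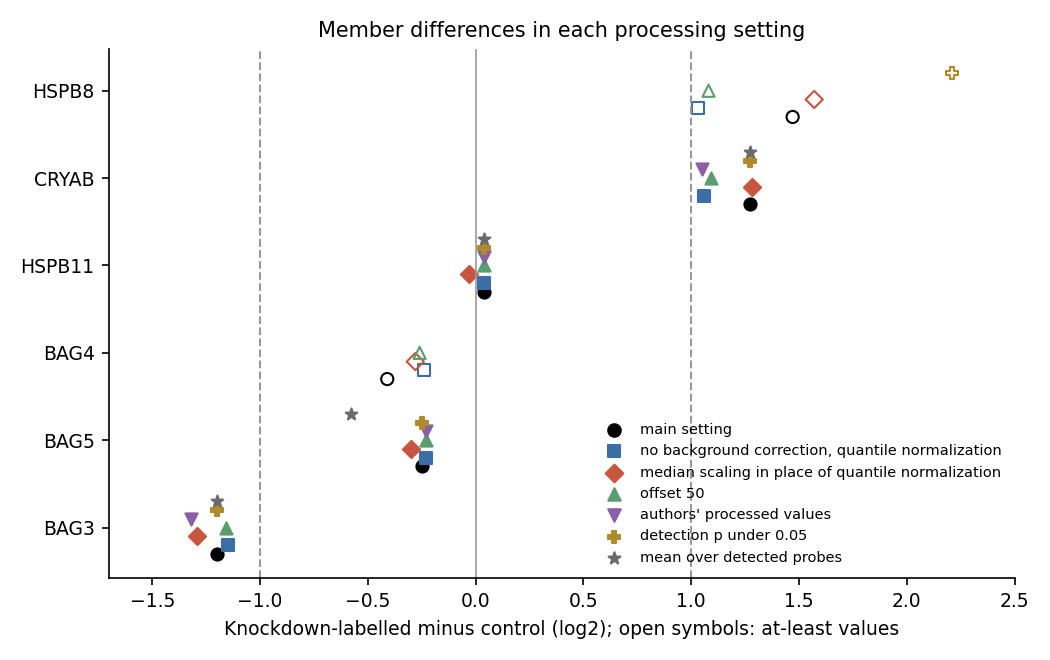
Difference between the arrays (log2) for each member with a value, in the main setting and each alternative; open symbols are at-least values of the genes detected on 1 array. BAG3 and CRYAB stay beyond the dashed 2-fold lines in each setting shown, and the at-least value of HSPB8 runs from 1.03 without background correction to 2.21 at a detection p under 0.05, where the log2 ratio of its signals is 1.96.

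The genes that work with BAG3 and HSPB8 did not move one way. Of 20 such genes listed, 18 had a named probe and 13 were detected on both arrays. Of the 13, 2 were at least 2-fold lower, 2 higher and 9 within 2-fold, and 7 lay below 0 and 6 above. Their median was -0.26 against -0.06 over all genes, of which 10.4% were at least 2-fold lower and 9.89% higher. The 13 are too few to be read against those shares. HSPA8, the constitutive HSP70 that BAG3 binds, had signals of 13965.3 and 5375.0 and was lower by -1.19, and its second probe gave -1.21. SQSTM1, the autophagy receptor p62 that carries the clients of this route, had signals of 7114.0 and 2933.8 and was lower by -1.13. YAP1, the Hippo pathway coactivator whose inhibitors BAG3 can bind, had signals of 166.7 and 379.0 and was higher by 1.50. DNAJB6, an HSP40 that works with HSP70 against aggregation, was higher by 1.03, on the 2-fold line: it was 0.99 in the authors' processed values and 0.73 as the mean of its detected probes. BAG3, HSPA8 and SQSTM1 were thus each lower on the knockdown-labelled array while HSPB8, of the same complex, was higher.

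The 2 brightest of the 9 genes within 2-fold both lay below 0. DYNLL1, the dynein light chain, was at -0.94, but its other detected probe was past the 2-fold line at -1.04. HSPA1B, a heat-inducible HSP70, was at -0.58 at its 1 probe. HSPA1A is a near-identical copy whose RNA that probe could bind as well, and its own probe was detected on neither array. STUB1, which encodes the CHIP of the BAG3 complex and is named for that, was at -0.26. Genes of that list also lay above 0 within 2-fold, the furthest being DNAJB2, an HSP40 gene, at 0.86 and TSC1, a regulator of mTOR, at 0.72, both named after their values were seen.

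Kinases and clients of the small heat shock proteins showed 1 difference of 2-fold. Of 4 kinases detected on both arrays, MAPKAPK3, which phosphorylates HSPB1, had signals of 1929.6 and 585.0 and was lower by -1.63. MAPKAPK5 (signals of 907.1 and 806.2) and PRKCD (-0.72) lay within 2-fold, and the list median was -0.36. PRKD1, named after its value was seen, was detected on the knockdown-labelled array alone, with signals of 59.6 and 147.0. Of 4 cytoskeletal genes detected on both arrays, 0 passed 2-fold and the median was -0.01. Lists of 4 genes are too few to be read against all genes, of which 10.4% were at least 2-fold lower and 9.89% higher. The actin genes ACTG1 (-0.49) and ACTB (-0.23) lay below 0 and the keratin genes KRT8 (0.94) and KRT18 (0.22) above it. The direction of KRT18 was not fixed, as its 3 detected probes ran from -0.99 to 0.22, with a mean of -0.46. Vimentin (VIM), desmin (DES) and GFAP, filament proteins known as CRYAB clients in other tissues, were detected on neither array.

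Partners of the other BAG proteins were higher in 2 of 8 genes detected on both arrays and lower in 0, with a median of 0.04. The shares over all genes were 9.89% higher and 10.4% lower, and 8 genes are too few to be read against them. PINK1, the mitochondrial kinase upstream of parkin, had signals of 113.4 and 314.5 and was higher by 1.97. PPP1R15A, the stress-induced phosphatase subunit GADD34 that BAG1 can bind, had signals of 531.0 and 1475.6 and was higher by 1.71. GAK, whose product carries a clathrin-uncoating domain, was at 0.05, and the ubiquitin ligase gene SIAH1 at 0.25. TNFRSF1A, the receptor that BAG4 binds, was named after its value was seen and lay at -0.99, with signals of 1462.4 and 672.0.

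HSPB11 was set beside the other genes of intraflagellar transport complex B, of which it is a subunit. Of 16 listed, 6 were detected on both arrays and 10 on neither, and the 6 had a median of 0.14 with 1 lower and 0 higher. Among all genes 10.4% were lower and 9.89% higher, and 6 genes are too few to be read against that. IFT56 was lower by -1.30 with signals of 175.2 and 93.8, but lay within 2-fold at -0.88 without background correction and at -0.86 in the authors' processed values. CLUAP1 was at 0.33, IFT20 at -0.53 and IFT27, the direct partner of HSPB11, at 0.59 with signals of 98.1 and 126.9. IFT27 is named for that partnership.

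**Figure D4:**
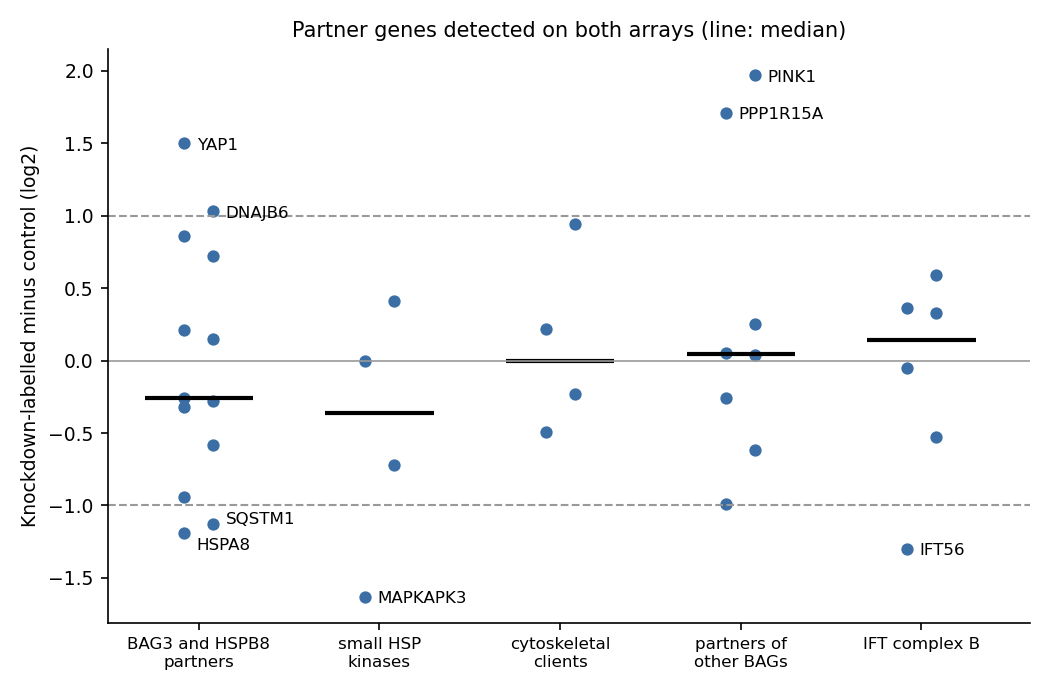
Difference between the arrays (knockdown-labelled minus control, log2) of each partner gene detected on both arrays, by list, with the list median as a line and dashed lines at 2-fold. Medians run from -0.36 to 0.14, and the 8 genes beyond 2-fold are labelled, 4 of them lower.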

How the data were processed

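Total RNA was labelled as biotinylated cRNA and hybridised to 1 BeadChip per group, per the labels' protocols. The deposited table of non-normalized values holds a bead intensity on a linear scale for each of 48802 probes on each array. No background correction or normalization is recorded per the file headers. Its header has 1 name fewer than its rows have cells, an array address being unnamed, so each name was read 1 cell to the right. The deposited detection values are a fraction that is larger for brighter probes, and 1 minus that value was taken as the detection p. The second deposited table gives log2 values that the authors centred per probe; its column medians are 0.00222 and -0.00275. Between its columns the difference followed the log2 ratio of the signals over probes detected on both arrays (slope 0.981, r = 0.996 across probes, which are not replicates). Its centring stays unknown, so only differences were used. No scanner, image software or genome build is named in the labels or headers.

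Signals were normalized over the whole table by the neqc function (limma 3.58.1, R 4.3.3, with background inferred from detection p, offset 16, quantile normalization, log2). The procedure was tested on simulated data in which only bright probes were changed, each by more than 2-fold. That test did not cover dim probes or differences near 2-fold. Subtracting background widens the log2 differences of dim genes beyond those of their signals, and the offset pulls them together, so at-least values hold on the corrected scale only. The platform annotation of 2016 gave 1 gene for 27577 probes, several for 13 and none for 21212; symbols were updated by gene number to the RefSeq table (GRCh38.p14). The probe with the highest mean level stood for a gene, and every member probe is given. Detected means a detection p under 0.01. The lowest detected levels, which set the bounds, were 5.84 (control) and 5.70 (knockdown-labelled), leaving out HSF1.

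All 9 members are reported. In partner lists the genes at least 2-fold different and up to 2 of the brightest others were named, besides any whose choice is stated. Members, lists and rules were chosen with earlier results of these data known.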

Additional observations from a re-analysis of the deposited data

How the results depend on the processing

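With 1 array per group there is no replicate to leave out. No paired analysis was possible because each group has a single array and no residual spread. BAG3 stayed at least 2-fold lower (from -1.32 to -1.15) and CRYAB at least 2-fold higher (from 1.05 to 1.28) in the main setting and 6 alternatives: no background correction, median scaling, an offset of 50, the authors' processed values, a detection p under 0.05, and the mean over detected probes. The last-named limit and mean could not change the value of BAG3 or CRYAB, as each has 1 probe that was detected on both arrays. BAG5 stayed within 2-fold (from -0.58 to -0.23), and HSPB11 lay within 2-fold too but crossed 0. The at-least difference of HSPB8 was 1.47, and became 1.03 without background correction, 1.08 with an offset of 50, 1.57 with median scaling and, on the corrected scale, 2.21 at a detection p under 0.05. That last value exceeds the log2 ratio of its signals, 1.96, so 1.03 is the value to read as a bound. That of BAG4 was -0.41, and lay between -0.28 and -0.24 under 3 of these alternatives. At that limit HSPB1, BAG1 and BAG4 counted as detected on both arrays, at 0.12, -0.29 and -0.56. Without a filter on dim probes, 2 members were higher because HSPB8 then counts at 2.84, and 1220 genes were higher among all 18665 tested, against 743 of 7511. With the mean over detected probes, the median of the cytoskeletal clients moved from -0.01 to -0.39, as that construction adds their dimmer probes, and 1 in place of 2 of the BAG3 and HSPB8 partners was higher; without background correction 0 in place of 1 gene of transport complex B was lower. No fold of a gene near background can be read beyond its bound.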

Other observations

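The genes next to the 4 members detected on both arrays, in the order of the RefSeq table and with a probe on the array, were looked up. Of 8 such neighbours, 6 were detected on both arrays and 0 of them differed by 2-fold; over all genes 10.4% were that much lower and 9.89% higher, so 6 genes are too few to be told from the background. BAG3 (-1.20) lies between TIAL1 (0.38), an RNA-binding protein gene, and INPP5F (-0.21), an inositol phosphatase gene. CRYAB (1.27) lies between CFAP68 (0.75) and HSPB2, which was detected on neither array. BAG5 (-0.25) lies between the tRNA methyltransferase gene TRMT61A (-0.71) and COA8 (0.99), a gene of cytochrome oxidase assembly. HSPB11 (0.04) has LRRC42 (-0.06) on one side and on the other DIO1, a thyroid hormone deiodinase gene that was detected on the knockdown-labelled array alone, with signals of 93.2 and 150.9. CFAP68, TRMT61A and INPP5F thus lay on the same side of 0 as the member beside them, while TIAL1 and COA8 lay on the other side. LRRC42 cannot be placed this way, because the direction of HSPB11 was not fixed. DDHD2, named after its value was seen, lies beside BAG4 and was lower by -1.18, while LSM1 on the other side was at 0.19.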
